A study of Mus musculus with 2 samples.

Results

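The microRNA (miRNA) genes described here lie within a single intron of Sfmbt2, a Polycomb group gene on mouse chromosome 2. They were taken by position alone, as all GENCODE M21 miRNA genes on the plus strand inside the borders of Sfmbt2 in mm10, and the rule uses no measured value. The rule found 119 of the 2202 annotated miRNA genes. Of these, 71 carry a miRNA name from 4 families, with 29 Mir669, 23 Mir466, 14 Mir467 and 5 Mir297 genes. The other 48 carry a provisional Gm symbol. By hairpin similarity, 44 of the Gm genes were nearest to a Mir669 gene, 3 to a Mir466 gene and 1 to a Mir467 gene. The identity of a Gm hairpin to its nearest named one ranged from 83.5% to 100%, with a median of 95.9%. With hairpins grouped by nearest family, the median identity of a pair was 76.5% within a family and 73.3% between families. Most Gm genes thus closely resemble a named gene, but the family of the least similar ones is not certain.

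A miRNA gene is transcribed as part of a longer RNA, here that of Sfmbt2. A hairpin is cut out of it, and a short mature strand of the hairpin then guides the silencing of messenger RNAs that pair with its seed, the bases near its 5′ end. Sfmbt2 is an imprinted gene of rodents, expressed from the paternal allele in early embryos and in trophoblast, the lineage of the placenta. Its intronic miRNA cluster arose in rodents by repeated duplication and is best known from placenta and embryonic stem cells.

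The libraries came from adrenal glands of male B6CASTF1/J mice aged 2 months, first-generation hybrids of a laboratory strain and a castaneus-derived strain. The series holds 1 group of 2 libraries, replicate 1 from animal 3 and replicate 2 from animal 4. The labels give them as separate biological replicates, although both carry the same donor label. Small RNA of under 30 nt was sequenced from whole tissue, and the counts do not separate the parental alleles. With 1 group there was no treatment or tissue to compare, and p-values below measure only the difference between these libraries.

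Replicate 1 held 17000342 reads, of which 5752428 (33.8%) were counted on the strand of a miRNA gene, and replicate 2 held 10752051 reads with 3333149 (31.0%) counted. Levels are shares of these counted reads scaled to 1000000 (CPM). With 3 counts as the limit, a gene at 0 could have had up to 0.522 CPM in the first library and 0.900 CPM in the second. Of the reads that aligned, 39.4% and 41.2% aligned to several places. They stand in a row of their own and were not assigned to a gene. Limits and intervals cover counting error only, because no molecular identifiers tell reads of one molecule from reads of several. All 7 lists of cell-type miRNAs were detected in full, those of liver and muscle included, so their detection does not single out the adrenal gland. The liver gene reached 690 and 1331 CPM, and the 3 muscle genes summed to 708 and 453 CPM. The 4 neuroendocrine genes summed to 72802 and 51447 CPM, and the 3 steroid-tissue genes to 1461 and 1550 CPM. The 3 erythroid genes differed most, at 22813 CPM in the first library and 901.0 CPM in the second, and the part of such differences in the values below was not tested.

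Printed sequences come from RefSeq on GRCm38.p6, whose miRNA table matched 0 of the 119 genes and 8 of the 10 genes of the same families that lie elsewhere in the genome. The mature strands of 4 of these relatives are shown, with the seed (bases 2 to 8) in capitals. The first 3 were chosen after their values were seen, as those whose seed letters occurred in most Sfmbt2 hairpins, and mmu-miR-669n is the only relative of the Mir669 family in the table.
mmu-miR-467g: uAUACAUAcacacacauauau
mmu-miR-466j: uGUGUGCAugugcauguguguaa
mmu-miR-466i-3p: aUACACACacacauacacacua
mmu-miR-669n: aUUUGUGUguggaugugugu

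The letters AUACAUA, the seed of mmu-miR-467g, occurred somewhere in 78 of the 119 Sfmbt2 hairpins (65.5%), against 3.12% of all other miRNA hairpins. The seed letters of mmu-miR-466j, GUGUGCA, occurred in 62 (52.1%), against 2.11% of the others. Those of mmu-miR-466i-3p, UACACAC, occurred in 60 (50.4%), against 5.76%. Those of mmu-miR-669n, UUUGUGU, occurred in 10 (8.40%), against 2.26%, and in 0 of the 7 detected genes described below. Of the same 7 genes, 5 held the letters of mmu-miR-467g, 4 those of mmu-miR-466j and all 7 those of mmu-miR-466i-3p. Over the other 4 relatives the share of Sfmbt2 hairpins ran from 42.0% for mmu-miR-466k, against 7.68% of other hairpins, down to 0.840% for mmu-miR-467h, against 0.624%. Each search read the transcribed strand of the hairpin, overlaps between the motifs were not removed, and a match anywhere in a hairpin is a description and not a mature seed. No Sfmbt2 hairpin held any of the 8 mature strands whole. In base composition the Sfmbt2 hairpins had a median GC content of 37.3%, against 51.7% over all other miRNA hairpins. The median longest unbroken UG or CA repeat was 8 bases in them and 4 bases in the others.

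The cluster is a dense tandem array. Sfmbt2 runs on the plus strand of chromosome 2 from 10370510 to 10595253 (mm10). The 119 genes all sit in the intron between its exons 10 and 11, at 10461473 to 10523944. They occupy 53.0 kb of this 62.5 kb intron, from Gm22072, which starts at 10465287, to Mir669h, which ends at 10518279. The hairpins are 73 to 127 bases long, and none overlaps the next. The gap to the next gene had a median of 206 bases and a range of 70 to 2575 bases.

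Repeats of one unit make up most of the array. The 14 Mir467 genes and Gm25022, the Gm gene nearest to them, mark this unit, 1 copy per step of 1.91 to 2.47 kb, with a median step of 2.45 kb. Of the 119 hairpins, 107 were at least 90% identical to another hairpin of the array. In 16 groups, 47 hairpins were identical throughout to at least 1 other. The largest such group holds 9 genes, Mir669a-4 to Mir669a-12. The next holds 7, namely Mir467a-2, Mir467a-4, Mir467a-5, Mir467a-7, Mir467a-8, Mir467a-9 and Gm25022. A read from any hairpin of such a group cannot be placed on 1 gene.

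**Figure D1:**
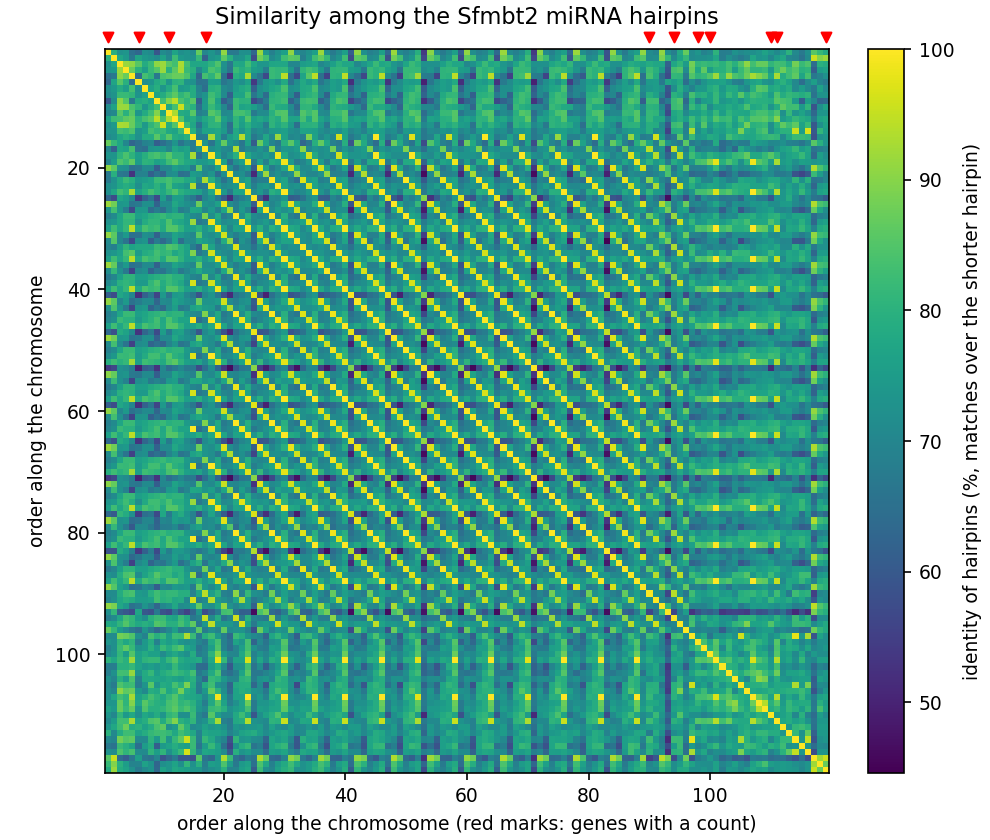
Identity between each pair of the 119 hairpins, in percent of the shorter hairpin, with genes in chromosome order on both axes. The yellow diagonals away from the main one are copies of the same hairpin at a constant step, and the red marks above the map show the 11 genes with a count, none of them among the 72 genes in the middle from Mir466b-1 to Gm26398.

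Because of this similarity, what a count can show was measured for each hairpin first. Every window of 22 bases, about the length of a mature miRNA, was looked up in all other annotated miRNA hairpins on both strands. In the cluster, 54 hairpins (45.4%) had no window of their own, against 13.4% of all other miRNA hairpins. For these 54 genes a count of 0 cannot tell a silent gene from one whose reads fell on several copies. The other 65 had at least 1 window of their own. When windows were looked up in all GENCODE transcripts of other genes, an alternative chosen after seeing the data, 65 still had one, but 24 of them had fewer. There Mir669h fell from 71 windows of its own to 61, and 152 genes other than miRNA genes shared a window with it. Window numbers below are those against miRNA hairpins, unless transcripts are named. Elsewhere in the genome, outside transcripts, windows were not looked up. A level given below is thus that of the reads placed at 1 locus, and leaves out any read that a gene shares with its copies. The windows are those of the mm10 reference, and the castaneus-derived alleles of these hybrids were not looked up. How reads of those alleles were placed was not tested, so windows, zeros and comparisons of neighbours below hold for the reference sequence only.

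Few genes of the cluster were counted. In all, 11 had a count in at least 1 library (9.24%), against 739 of the 2083 other miRNA genes (35.5%), and 108 were at 0 in both. On detection, meaning at least 2 CPM in both libraries, 7 of 119 qualified (5.88%), against 365 of the 2083 other miRNA genes (17.5%). Among genes with a window of their own, 7 of 65 in the cluster were detected (10.8%), against 19.2% of the other genes with one. These 2 sets were not matched for how many windows a hairpin had to itself. At least 90% of windows were their own in 7 of the 65, against 1234 of the 1803 other genes. The shares counted and detected are descriptions of 1 pair of libraries. All 119 genes had 0 counts on the opposite strand in both libraries.

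The genes of the cluster summed to 2849 counts in replicate 1 and 1873 in replicate 2. As levels these were 495 and 562 CPM, or 529 ± 47.1 CPM (mean ± SD, n = 2), so about 0.0495% and 0.0562% of all counts at miRNA genes. On this scale of total counts the sums differed beyond counting error, with a log2 ratio of replicate 1 over replicate 2 of -0.18 (SE 0.0429). Most of each sum came from 4 genes. Mir467d, Mir467e, Mir669c and Mir669o held 94.5% of the cluster's counts in replicate 1 and 90.8% in replicate 2. Reads aligned to several places outnumbered the cluster's counts 1564-fold in replicate 1 and 1653-fold in replicate 2, and how many of them came from Sfmbt2 cannot be read from these files.

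The Mir467 family led. Its 14 genes held 72.3% of the cluster's counts in replicate 1 and 72.7% in replicate 2, all from 3 genes. Mir467d, at 10507630 to 10507714, had 1359 counts in replicate 1 and 842 in replicate 2, or 236 CPM (95% Clopper-Pearson interval 224 to 249) and 253 CPM (236 to 270). At 244 ± 11.6 CPM it was the highest gene of the cluster in both libraries and ranked 143 among all miRNA genes. It had 25 of its 64 windows to itself, and 19 of these 25 began in the 5′ part of the hairpin.

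Mir467e, at 10505721 to 10505807, had 603 and 421 counts, or 105 and 126 CPM (116 ± 15.2). Mir467c, at 10473931 to 10474027, had 99 and 98 counts, or 17.2 and 29.4 CPM (23.3 ± 8.62). The 3 counted genes are close relatives, 94.1% to 95.3% identical to each other, and Mir467c was the lowest of them in both libraries. They stand at the ends of the row of Mir467 copies: Mir467c is the first of the 15, and Mir467e and Mir467d are the last.

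Between them lie 12 copies with 0 counts. Of these, 11 had no window of their own, so their expression could not be read. Mir467b, at 10481248 to 10481320, was the exception. It had 11 of 52 windows to itself, all in the 3′ part of the hairpin, and no read in either library. Mir467b was 97.3% identical to Mir467a-2, whereas Mir467d was 91.6%, Mir467c 89.2% and Mir467e 88.0% identical to it. The counted genes were those whose hairpins differed most from the common Mir467a type. This contrast cannot separate expression from the placing of reads. A copy without a window of its own offers no unique place for a read of window length.

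The Mir669 family came second, with 784 and 509 counts over its 29 named genes, or 27.5% and 27.2% of the cluster. Mir669c, at 10509296 to 10509404, had 525 and 269 counts, or 91.3 and 80.7 CPM (86.0 ± 7.47). Mir669o, at 10514300 to 10514395, had 204 and 169 counts, or 35.5 and 50.7 CPM (43.1 ± 10.8). These genes hold most of the family's counts in both libraries, and their hairpins were only 85.4% identical to each other. Mir669l, at 10468971 to 10469068, had 37 and 47 counts, or 6.43 and 14.1 CPM (10.3 ± 5.42). Mir669h, the last gene of the cluster, had 16 and 15 counts, or 2.78 and 4.50 CPM (3.64 ± 1.22), just above the detection limit.

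Just outside that limit was Mir669e, with 2 counts (0.348 CPM) in replicate 1 and 9 (2.70 CPM) in replicate 2. It therefore passed in 1 library only, and its 95% intervals in CPM, 0.0421 to 1.26 and 1.23 to 5.13, overlapped. Mir466n is given with its family below. Gm25263 had 1 count in each library, and Gm22072, the first gene of the cluster, had 1 count in replicate 1 and 0 in replicate 2.

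Mir466 and Mir297 were nearly silent among reads that could be placed. Of the 23 Mir466 genes, only Mir466n had a count, 2 in each library. The 5 Mir297 genes were at 0 in both libraries. Not all of these zeros belong to hairpins without sequence of their own: 14 of the 23 Mir466 hairpins and all 5 Mir297 hairpins had windows of their own. These windows were often uneven. For Mir297a-2, 0 began in the 5′ part and 25 in the 3′ part, for Mir297a-3 0 and 21, and for Mir297a-4 1 and 22. Mir297c (16 and 5) and Mir297b (35 and 9) leaned to the 5′ part. Mir466o, Mir466d and Mir466f-3 had 0 in the 5′ part, whereas Mir466g had 29 and 30. Where a part held no such window, the zero covers only reads from the other part.

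**Figure D2:**
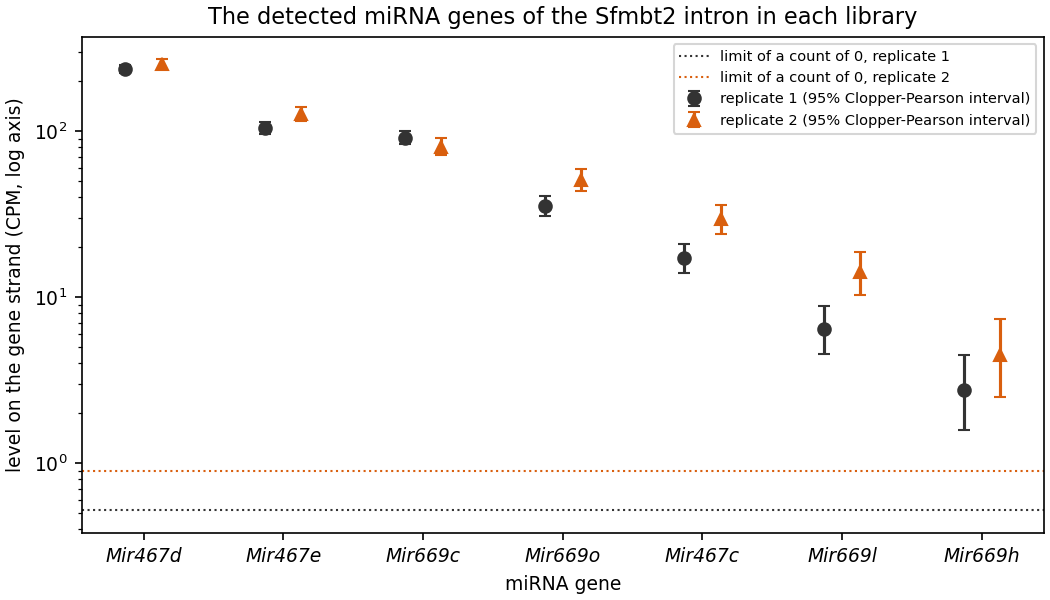
Level of the 7 detected genes in each library in CPM (log axis), with 95% Clopper-Pearson intervals for counting error. The dotted lines are the levels that a count of 0 allows, 0.522 CPM for the first library and 0.900 CPM for the second, and the genes descend in the same order in both libraries.

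The order of the 7 detected genes was the same in both libraries, from Mir467d over Mir467e, Mir669c, Mir669o, Mir467c and Mir669l to Mir669h. Mir467d exceeded Mir669h 84.9-fold in replicate 1 and 56.1-fold in replicate 2. The smallest step was that from Mir467e to Mir669c, 1.15-fold in replicate 1 and 1.57-fold in replicate 2, and the intervals of these neighbours overlapped in replicate 1. The step from Mir467d to Mir467e was 2.25-fold and 2.00-fold. Counts were not divided by hairpin length, because a small-RNA read covers about one mature strand whatever the length of the hairpin. They were not corrected for the share of windows that a hairpin has to itself either, so the order is that of uniquely placed reads.

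Neighbouring genes differed widely in uniquely placed reads. Mir466, which starts 203 bases after Mir467d ends, had 0 counts in both libraries although 23 of its 52 windows were its own. Of these 23 windows, 2 began in the 5′ part of the hairpin and 21 in the 3′ part. Most 22-base reads from the 5′ part could thus not be placed on Mir466. Against the limit of 3 counts per library, uniquely placed reads of Mir467d were at least 453-fold those of Mir466 in replicate 1. In replicate 2 they were at least 281-fold. On the other side of Mir467d, Gm22678 was also at 0, with 71 of 80 windows its own.

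Mir669c showed the same contrast. Gm24342, 179 bases after it, had 68 of 83 windows to itself (64 against all transcripts) and 0 counts. However, 3603 genes other than miRNA genes shared a window with Gm24342. In uniquely placed reads, Mir669c was at least 175-fold higher than Gm24342 in replicate 1 and at least 89.7-fold higher in replicate 2. Mir466g, 199 bases after Mir669o, had all of its 59 windows to itself (58 against all transcripts) and no read. In uniquely placed reads, Mir669o was at least 68.0-fold and at least 56.3-fold higher than Mir466g.

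Of the 108 genes at 0 in both libraries, 54 had no window of their own and 54 had at least 1. Of the latter 54, 19 had at least 50% of their windows to themselves, and Mir466g and Gm22239 had all of them, 59 of 59 and 82 of 82. Against all transcripts only Gm22239 still did. In the cluster 7 hairpins had at least 90% of their windows to themselves, and 0 of these 7 were detected. Elsewhere, 320 of 1234 such hairpins were detected. Of these 7 in the cluster, Mir669e had 2 and 9 counts, Gm25263 had 1 in each library and the rest had none. The 7 detected genes of the cluster were not those with the most sequence of their own: Mir467d had 25 of 64 windows, Mir669c 73 of 88 and Mir669h 71 of 104.

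Counts were gathered at the ends of the array. The first 17 genes, Gm22072 to Mir467c over 8.74 kb, held 4 counted genes and 4.88% of the cluster's counts in replicate 1 (8.22% in replicate 2). The last 30 genes, Mir467e to Mir669h over 12.6 kb, held 7 counted genes and 95.1% (91.8%). Between them a run of 72 genes over 30.6 kb, Mir466b-1 to Gm26398, had 0 counts in both libraries. This run was delimited by the counts themselves, so its emptiness is a description. In it, 52 of the 72 hairpins had no window of their own, against 0 of the first 17 and 2 of the last 30. The part of hidden copies in the empty middle was not tested, as the reads placed at several loci cannot be returned to their genes here. The other 20 hairpins of the run did have windows of their own and no read. Their share of such windows ranged from 1.89% to 77.2%, and most of the 20 had under 50%.

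**Figure D3:**
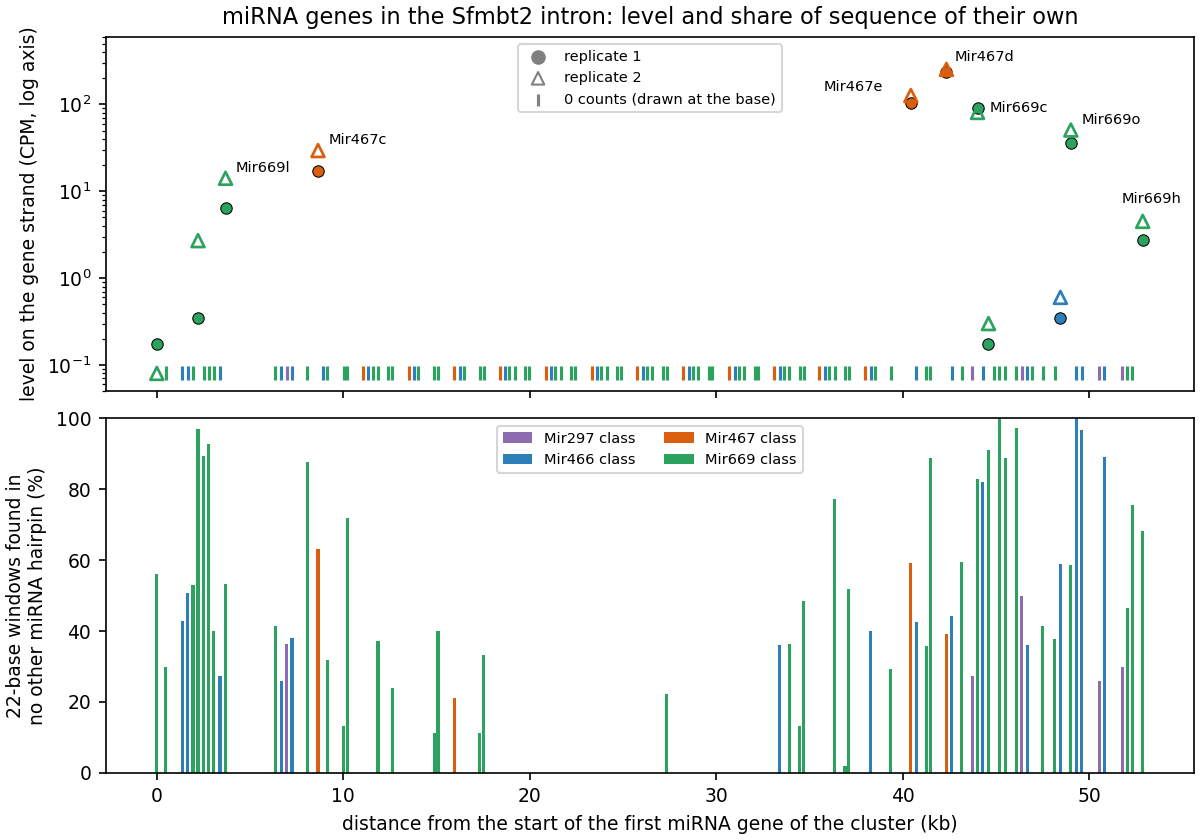
Top, level of each gene of the cluster in CPM (log axis) against the distance from the start of the first gene in kb, with filled circles for replicate 1, open triangles for replicate 2 and ticks or symbols at the base for 0 counts. Bottom, percent of 22-base windows of each hairpin that occur in no other miRNA hairpin; the counted genes stand at both ends, and 52 of the 72 hairpins in the empty middle have no bar.

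Relatives elsewhere in the genome had no uniquely placed read. The 10 genes of the Mir297, Mir466, Mir467 and Mir669 families outside Sfmbt2, on 7 other chromosomes, had 0 counts in both libraries, and all 10 had windows of their own. Mir466j on chromosome 10, for example, had 92 of 101 windows to itself, but Mir467h on chromosome 9 had 40 of 100. The detected reads of these families thus all came from the Sfmbt2 intron, as far as reads could be placed.

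The other large imprinted miRNA cluster of mice, in the Dlk1-Dio3 domain of chromosome 12, was detected almost throughout. Of its 59 genes on the plus strand, 51 had a count and 49 (83.1%) were detected, and together they reached 54893 and 55934 CPM. Of its hairpins, 6 had no window of their own (10.2%). The Sfmbt2 genes had 5.88% detected, and the difference between the clusters was not tested, because genes of one transcript are not replicates. A list of 19 other imprinted miRNA genes, with 5 detected, summed to 4517 and 3939 CPM, also above the sum of the Sfmbt2 cluster in each library.

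How far the libraries differed was tested gene by gene with a two-sided exact binomial test over the 389 genes whose mean count was 10 or more, after TMM scaling (edgeR) and with Benjamini-Hochberg adjustment over all 389. Log2 ratios are replicate 1 over replicate 2, with 0.5 counts added and an SE for counting error. Of all genes tested, 30.8% were called higher in replicate 1 and 28.3% lower. This test covers counting error only, not variation between animals. Of the 7 tested Sfmbt2 genes, 1 was called higher and 2 lower, 3 of 7 in all, against 230 of 389 genes (59.1%). The summed cluster had a log2 ratio of 0.017 (SE 0.0429), within counting error of no difference under this scaling. With total counts it was -0.18, over 4 SE below 0, so the result holds only under TMM or DESeq2 scaling.

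Mir669c, with 91.3 and 80.7 CPM, was higher in replicate 1, by 0.38 on the log2 scale (SE 0.11, exact binomial adjusted p = 0.000891). Mir467c, with 17.2 and 29.4 CPM, was lower, with a log2 ratio of -0.57 (SE 0.21, exact binomial adjusted p = 0.0103). Mir669l, with 6.43 and 14.1 CPM, was lower too, at -0.93 (SE 0.32, exact binomial adjusted p = 0.00666). The 2 lower genes are those at the start of the array. Mir669c lies near its end, but so do Mir467d (0.10), Mir467e (-0.07), Mir669o (-0.32) and Mir669h (-0.50), which were not called. A trend with position was not tested.

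The calls depend on the scaling. With total counts in place of TMM, which moved the median log2 ratio of all genes by -0.20, the background was 21.9% higher and 43.7% lower. There 0 Sfmbt2 genes were higher and 4 were lower (Mir467e, Mir669o, Mir467c and Mir669l), and the value of Mir467d turned from 0.10 to -0.10, not called in either. The edgeR exact test with one dispersion for all genes, from both libraries taken as 1 group, called 1.03% of the 389 genes and 0 of the 7 Sfmbt2 genes, 0 of them at an unadjusted p under 0.05. That dispersion comes from the very difference under test and is too wide for changes within 2-fold to pass, so this 0 says nothing about these genes. With total counts Mir669l lay beyond 2-fold, at a log2 ratio of -1.13. After TMM scaling all 7 lay within 2-fold between the libraries, as did 85.6% of all genes tested. Their median log2 ratio was -0.32, against 0.01 over all 389.

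**Figure D4:**
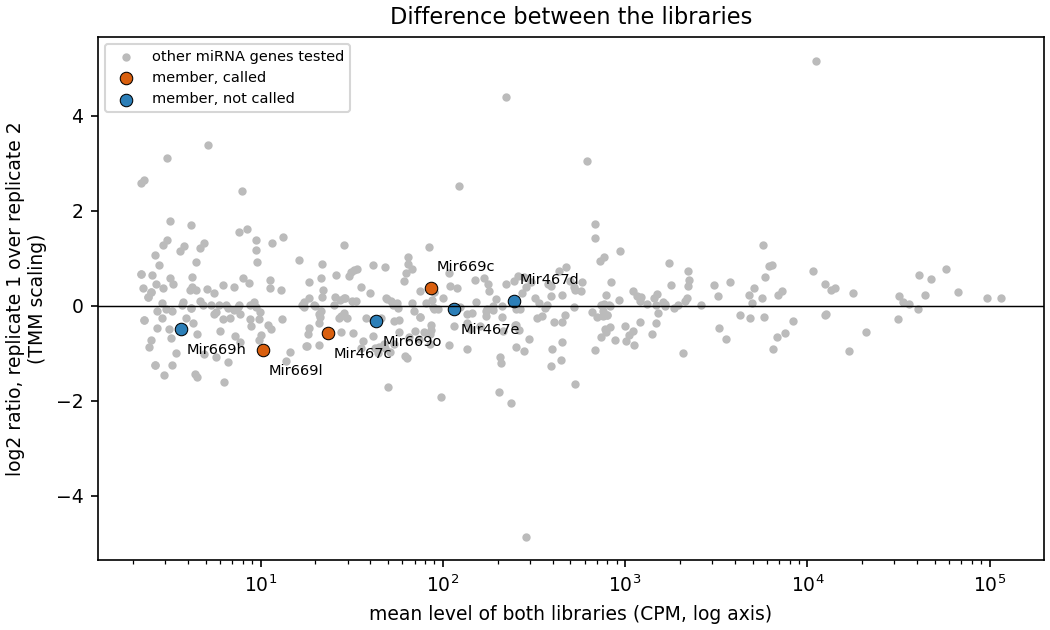
Log2 ratio of replicate 1 over replicate 2 after TMM scaling against the mean level in CPM (log axis) for the 389 genes tested, with the 7 Sfmbt2 genes marked. Mir669c, Mir467c and Mir669l (orange) were called by the exact binomial test, and all 7 lie between -0.93 and 0.38.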

How the data were processed

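Per the labels, the authors made 1 small-RNA library from the adrenal glands of each animal. What they deposited are raw counts per miRNA gene, on mm10 with GENCODE M21 per the file headers. Aligner and trimming: not given in the sources used here. The gene-strand column was used. Rows naming no gene (66.2% and 69.0% of reads) stayed out of library sizes. The members, gene lists and named-gene rule were chosen with earlier results of these data known. Named were all detected or tested genes, the highest gene of each family, the first and last gene, and the 2 largest groups of identical hairpins. Mir467b, Gm25263, Mir669e, and the neighbouring and fully distinct hairpins were named after their values were seen. Uniqueness was planned on mature sequences and measured on GENCODE hairpins, since RefSeq matched 0 genes. Identity is the share of matches over the shorter hairpin in a global alignment with free end gaps (Biopython 1.88). With 1 group, no quasi-likelihood test was possible. The exact test and window search were tested on simulated data. Alternatives covered scaling, filters, denominators, detection limits and window lengths. Tools were edgeR 4.0.16 and DESeq2 1.42.0 in R 4.3.3, and SciPy 1.17.1, NumPy 2.4.6, matplotlib 3.10.9 and pandas 2.3.3 in Python 3.11.15.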

Additional observations from a re-analysis of the deposited data

How the results depend on the processing

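The number of detected genes was 7 at 1 CPM and with unstranded counts, 6 at 5 CPM, 10 at any count in both libraries, and 7 to 8 from 1 library alone. The summed level of 529 CPM ranged from 495 to 562 CPM between single libraries. It was 251 CPM with all aligned reads as the denominator, 2228 CPM without the 20 most abundant genes in the denominator and 628 CPM with the unstranded column, which changed the denominator only. It was 284 CPM without Mir467d, and 169 CPM without Mir467d and Mir467e. Genes called between the libraries numbered 3 with DESeq2 size factors, 4 (0 higher, 4 lower) with total counts, 4 of 8 tested at a minimum of 5 counts, where 53.1% of 446 genes were called, and 4 of 10 at a minimum of 1 count, where 35.0% of 665 were. With the common dispersion they numbered 0, with 0 higher and 0 lower, a test that changes within 2-fold could not pass. The summed log2 ratio of 0.017 became -0.18 with total counts, beyond its counting error. Hairpins with a window of their own numbered 65 with windows of 18 bases and 66 with windows of 25. A window search on the first 18 bases of mature sequences was not run, as RefSeq matched 0 genes. No paired analysis was possible because there is 1 group. The depth limits any gene at 0 to 0.522 or 0.900 CPM of uniquely placed reads.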
